A study of Mus musculus with 24 samples.

Results

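Selenoproteins carry selenocysteine, and the mRNAs of 10 of them were followed between 2 ribosome pools of mouse erythroblasts. The genes were Gpx1, Gpx4, Txnrd1, Txnrd2, Msrb1, Selenow, Selenof, Selenok, Selenot and Selenop, some of which are listed on arrays under older names (Sepx1, Sepw1, Sep15, Selk, Selt, Sepp1). The annotation of the arrays gave them 22 of 45101 probe sets, and for each gene the probe set with the highest mean log2 signal over the 24 arrays was kept. Of the 10 genes, 9 passed the filter on dim probe sets (mean log2 signal of at least 6.17, or 64.4 signal units) and were tested among 11035 genes. Selenop, the secreted carrier of selenium, did not pass it, with signals of 2.28 to 125.8 on the 24 arrays.

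The cells were immortalized erythroblasts, grown without serum with Epo, SCF and Dex (erythropoietin, stem cell factor and dexamethasone). They received an Rps19 shRNA, an Rpl11 shRNA or a control construct (named ev in the titles and sc in the shRNA label) by lentivirus 3 days before harvest, or were untransduced, labelled wt, with no shRNA. Each of these groups has 3 gradients that the labels call biological replicates, and every lysate was taken with cycloheximide, which holds ribosomes on mRNA. Each gradient was pooled into a polysomal sample, with the polyribosome fractions as far as the monosome peak, and a subpolysomal sample with the remaining fractions, and each pool has its own array. All groups share the immortalized cells and their growth factors. The labels do not say whether the gradients came from separate transductions, so p-values measure the spread between these gradients. The description of Rps19 replicate 3, in both pools, alone holds the word puro, whose meaning the labels do not give, and calls that end without that gradient are named with their values.

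Selenocysteine is inserted at a UGA codon, which elsewhere ends translation. Recoding needs a stem-loop in the 3′ untranslated region (the SECIS element), the protein Secisbp2 that binds it, and the elongation factor Eefsec that delivers the charged tRNA. Where selenium is short, some of these mRNAs, with Gpx1 the textbook case, are lost by nonsense-mediated decay, while others such as Gpx4 are better kept. In red cell precursors Gpx1 removes hydrogen peroxide and Gpx4 removes lipid peroxides.

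Recruitment is the log2 polysomal minus the log2 subpolysomal signal of a gradient, and level is the mean of both log2 values. Recruitment below 0 means a higher signal in the subpolysomal pool. A gene is called higher or lower where limma's p is below 0.05 after Benjamini-Hochberg adjustment across the 11035 genes. Arrays are scaled to a common trimmed mean, so each value is relative to the other mRNAs of its pool.

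Both shRNAs lowered their targets, Rps19 by 2.88-fold (adjusted p = 0.00369) and Rpl11 by 6.32-fold (adjusted p = 0.0011) in level. Erythroid markers were present on all arrays, with Klf1 at 9304 to 15968 and Gata1 at 3396 to 7036 signal units, and 6 of 7 erythroid genes with a probe set of their own passed the filter. The seventh was Hba-a1, at 4.03 to 126.3. Of 4 megakaryocyte markers 3 passed, with Pf4 at 1078 to 5646. No lymphoid or hepatocyte marker passed, and 6 of 12 markers of mast cells, macrophages, neutrophils and fibroblasts did, with summed signals per list and array of at most 1181. The Rpl11 arrays stood apart. For Gapdh, the 3′ control probe set over the 5′ one gave log2 ratios of 0.99, 1.23 and 3.31 on their polysomal arrays. On the subpolysomal arrays the ratios were −0.46, 2.10 and 3.90 for replicates 1, 2 and 3, against a range of −0.42 to 0.42 on all arrays of the other groups. Their median signals were 46.8 to 49.0 in the polysomal and 65.7 to 86.7 in the subpolysomal pools, against 58.9 to 68.9 and 97.2 to 124.6. The part of RNA quality in the Rpl11 results was not tested.

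The starts of 4 genes are shown because their mRNAs mark the ends of the range of recruitment or its change, and because mRNAs with a run of pyrimidines from a C at their first base form the class whose ribosome loading follows growth signals. Each window runs from 10 bases before the annotated start to 20 bases from it, from RefSeq on GRCm38.p6, with the first 5 transcribed bases in capitals. Selenow lies at chr7:15922352-15922381 on the minus strand. Gpx1 (chr9:108339070-108339099), Selenof (chr3:144570417-144570446) and Selenot (chr3:58576626-58576655) lie on the plus strand. Gpx4, whose values are also followed in full, spans bases 80047166 to 80056439 of chromosome 10.
Selenow: gtgaggcagtCGGCTgtgcgcacggcccca
Gpx1: acaggagctaGACCAgacccgccctaggca
Selenof: cttggaggagGCGGGgctactgatggccga
Selenot: ttccctcgccGACCTtggcggagcgcgcct
Of these, only Selenow begins with C, and its second base is G. A C followed by pyrimidines in a run of at least 5 from the start, read on the strand of the gene, was found in 0 of 17 annotated start windows of the 10 genes and in 823 of 32851 windows in the table (2.51%). The windows of Rps19 and Rpl11 did not hold it either, and no match says only that these letters are not at these annotated starts.

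The selenoprotein mRNAs were spread over almost the whole range of recruitment. Selenow lay on the subpolysomal side and Selenot on the polysomal side in every group. In untransduced cells the 9 tested genes ran from −2.25 (Selenow) to 1.17 (Selenot), a range of 10.7-fold, and their SD of 1.12 compares with 0.67 over all tested genes. Selenow alone widens both the range and the SD, since the next lowest gene, Gpx1, stood at −1.28. The SD without Selenow was not computed. The range was 10.6-fold with the Rps19 shRNA, 9.12-fold with the Rpl11 shRNA and 9.84-fold with the control construct.

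**Figure D1:**
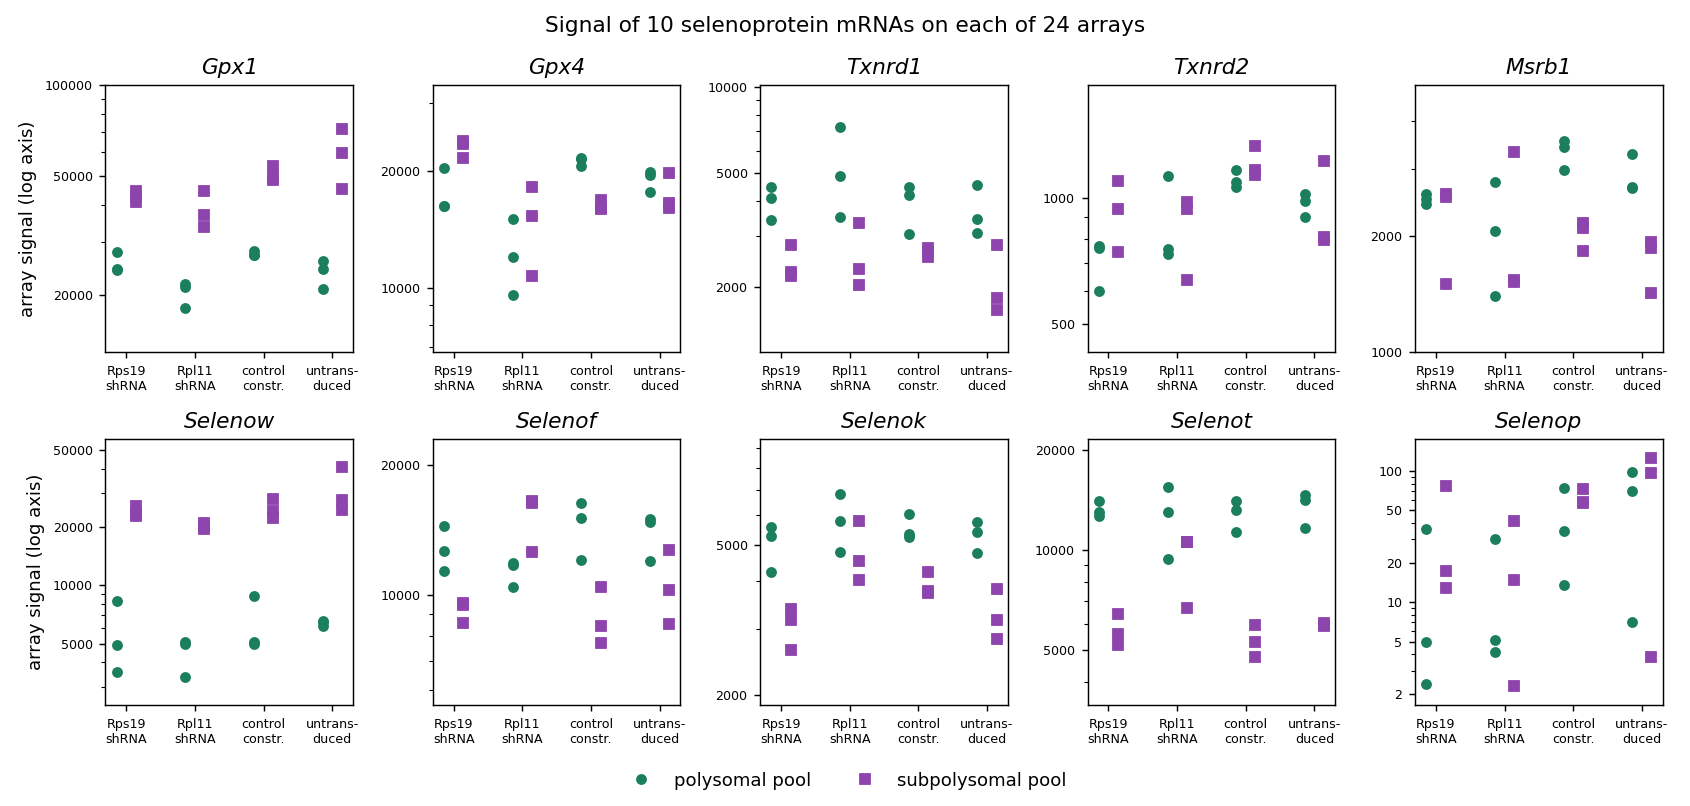
Array signal (log axis, arbitrary units) of the 10 genes in the polysomal (circles) and subpolysomal (squares) pool of each of 3 gradients per group. Selenow squares lie above the circles in all 4 groups, Selenot circles above the squares, and for Selenof the order is turned with the Rpl11 shRNA.

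Counted by the test, 4 of 9 genes were higher and 3 lower in the polysomal than the subpolysomal pool with the Rps19 shRNA, where 17.6% and 19% of all tested genes were. With the Rpl11 shRNA 2 were higher and 3 lower (14.1% and 14.5% of all genes). With the control construct 6 were higher and 2 lower (17.8% and 18.9%), and in untransduced cells 5 were higher and 2 lower (19.5% and 21.4%). The median recruitment of the 9 genes was 0.23 with the Rps19 shRNA, 0.02 with the Rpl11 shRNA, 0.50 with the control construct and 0.42 in untransduced cells, against −0.08, −0.04, −0.08 and −0.09 over all tested genes. Centring each array on its median instead moves the median of all genes to between 0.55 and 0.72 and makes 94% to 95.2% of the called genes polysomal, so the sign of a small recruitment depends on the scaling.

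**Figure D2:**
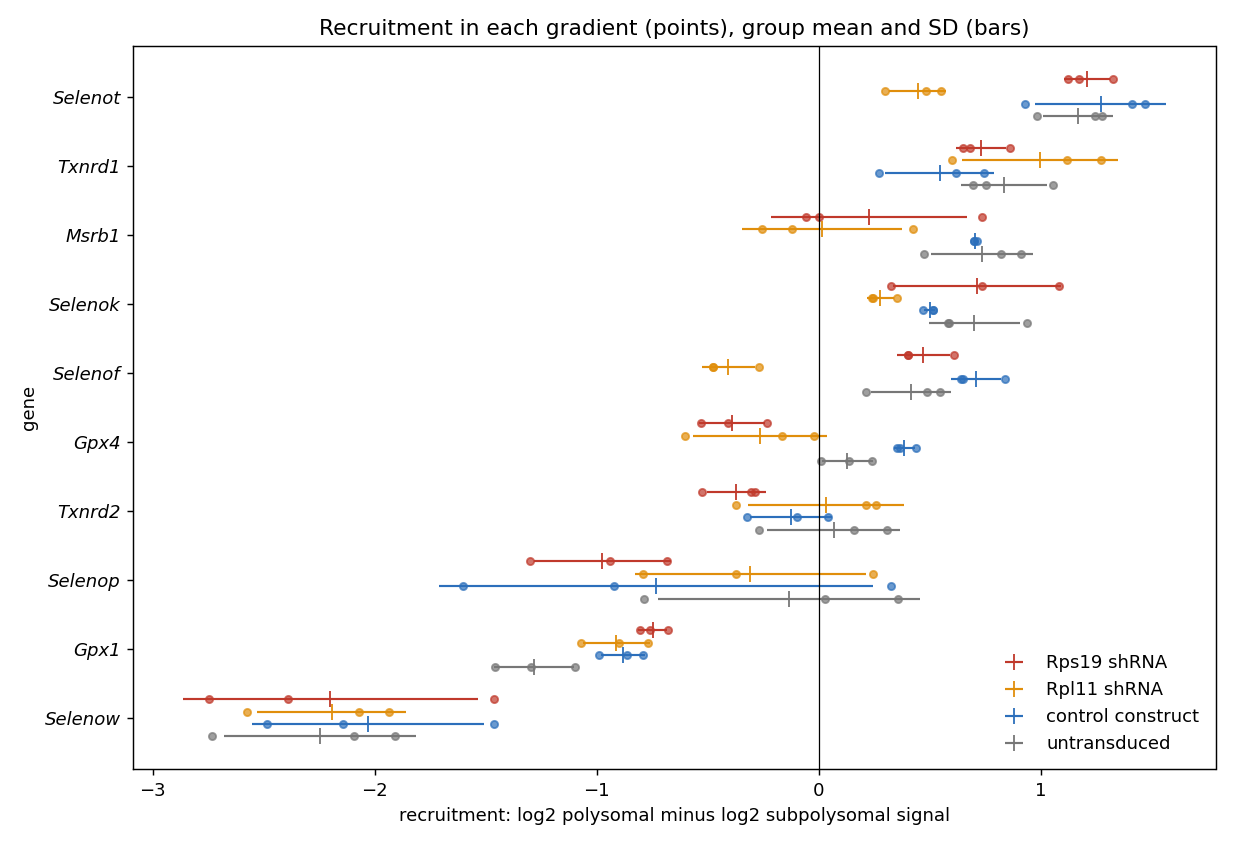
Recruitment (log2) of the 10 genes in each gradient (points) with the mean and SD of 3 gradients per group, genes ordered by the mean in untransduced cells. Selenow lies near −2 in every group, and the Rpl11 points of Selenof, at −0.48 to −0.27, lie below 0 while all other Selenof points lie above it.

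Gpx1, the cytosolic glutathione peroxidase, was lower in the polysomal pool in every group. In untransduced cells its polysomal signals were 26049, 24318 and 20974 and its subpolysomal signals 71564, 59625 and 44929, with no overlap. With the control construct they were 27097, 27967 and 27253, against 53808, 48448 and 49521. Recruitment was −0.75 ± 0.07 with the Rps19 shRNA, −0.91 ± 0.15 with the Rpl11 shRNA, −0.88 ± 0.10 with the control construct and −1.28 ± 0.18 in untransduced cells (SD, n = 3 each). The polysomal signal was 1.68-fold (Rps19 shRNA), 1.88-fold (Rpl11 shRNA), 1.84-fold (control construct) and 2.43-fold (untransduced) lower, with adjusted p between 1.73e-05 and 0.000449. This probe set read 0.547 to 0.688 of the highest signal on polysomal arrays and 0.481 to 0.549 on subpolysomal arrays, close to the top of the scale. Quantile normalization over all arrays took the recruitment of Gpx1 to −0.050 with the Rps19 shRNA, 0.011 with the Rpl11 shRNA, 0.22 with the control construct and 0.071 in untransduced cells, none past the threshold. Centring arrays on their median also ended the calls with the Rps19 shRNA (−0.10, adjusted p = 0.453) and the control construct (−0.24, adjusted p = 0.0738).

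Gpx4, which reduces lipid peroxides in membranes, was divided more evenly. Its recruitment was −0.23, −0.41 and −0.53 with the Rps19 shRNA, −0.60, −0.02 and −0.17 with the Rpl11 shRNA, 0.44, 0.35 and 0.37 with the control construct, and 0.01, 0.24 and 0.13 in untransduced cells. All 6 values of the shRNA groups lay below 0 and all 6 of the other cells above it. The polysomal pool was lower with the Rps19 shRNA (1.31-fold, adjusted p = 0.0257) and higher with the control construct (1.31-fold, adjusted p = 0.0264). It did not pass with the Rpl11 shRNA (adjusted p = 0.119) or in untransduced cells (adjusted p = 0.401). Leaving out any control gradient ended the call for the control construct (adjusted p of 0.116, 0.0817 and 0.0838 without replicates 1, 2 and 3). The Rps19 call ended without replicate 2 (adjusted p = 0.104) or 3 (adjusted p = 0.144), and centring arrays on their median turned that value to 0.26. In untransduced cells Gpx4 was called higher on polysomes with that centring (0.94, adjusted p = 7.58e-05) and with quantile normalization over all arrays (0.65, adjusted p = 0.00166).

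Txnrd1, the cytosolic thioredoxin reductase, was higher in the polysomal pool in every group. Recruitment was 0.73 ± 0.11 with the Rps19 shRNA, 1.00 ± 0.35 with the Rpl11 shRNA, 0.54 ± 0.25 with the control construct and 0.84 ± 0.19 in untransduced cells (SD, n = 3), which is 1.66-fold, 2.00-fold, 1.46-fold and 1.79-fold, with adjusted p of 0.0033, 0.000896, 0.0137 and 0.00125. With the control construct the call ended without replicate 2 (adjusted p = 0.0721) or 3 (adjusted p = 0.0926). Its second-brightest probe set read the other way in 3 groups, at −0.83 (Rps19 shRNA), −0.72 (control construct) and −0.74 (untransduced), none past the threshold. Txnrd2, the mitochondrial reductase, passed in no group, with recruitment of −0.37 ± 0.13, 0.03 ± 0.35, −0.13 ± 0.18 and 0.07 ± 0.30 in the same order of groups (adjusted p between 0.0752 and 0.89). This too depended on the processing. With arrays centred on their median Txnrd2 was called higher on polysomes with the Rpl11 shRNA (0.62, adjusted p = 0.0137), with the control construct (0.51, adjusted p = 0.0328) and in untransduced cells (0.88, adjusted p = 0.00134), and with the 75th-percentile filter it was called lower with the Rps19 shRNA (adjusted p = 0.0373).

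Msrb1, which repairs oxidized methionine, had recruitment of 0.74, a value next to 0 (2584 signal units in both pools) and −0.06 with the Rps19 shRNA, −0.26, 0.43 and −0.12 with the Rpl11 shRNA, 0.70, 0.70 and 0.71 with the control construct, and 0.47, 0.91 and 0.82 in untransduced cells. The values were tight with the control construct and widely spread with either shRNA. It was higher on polysomes with the control construct (1.63-fold, adjusted p = 0.0096) and in untransduced cells (1.66-fold, adjusted p = 0.00678; 0.0517 without untransduced replicate 2), and passed in neither shRNA group (adjusted p = 0.326 with the Rps19 shRNA and 0.953 with the Rpl11 shRNA). With arrays centred on their median it was called in both shRNA groups (0.87, adjusted p = 0.000646 with the Rps19 shRNA, and 0.60, adjusted p = 0.00677 with the Rpl11 shRNA), so which groups pass depends on the scaling.

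Selenow, a small thiol protein of the cytosol, was the most subpolysomal of the 10 genes. Its polysomal signals were 6184, 6486 and 6566 in untransduced cells, against 41163, 27715 and 24697 in the subpolysomal pool. With the Rps19 shRNA they were 4910, 3546 and 8281, against 25789, 23861 and 22795. The pools did not overlap in any group. The polysomal signal was 4.59-fold (Rps19 shRNA), 4.57-fold (Rpl11 shRNA), 4.08-fold (control construct) and 4.74-fold (untransduced) lower, with adjusted p between 0.000162 and 0.000357. Only 0.471%, 0.299%, 0.625% and 0.471% of tested genes had a recruitment at or below that of Selenow in these groups. A second probe set of Selenow gave −2.11, −2.79, −2.01 and −2.51, all past the threshold.

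For the proteins of the endoplasmic reticulum, Selenof, Selenok and Selenot, the kept probe sets had mean recruitment above 0 with 1 exception. This was Selenof with the Rpl11 shRNA (−0.41). Selenot, a thioredoxin-like protein, was 2.31-fold higher on polysomes with the Rps19 shRNA, 1.36-fold with the Rpl11 shRNA, 2.41-fold with the control construct and 2.25-fold in untransduced cells, with adjusted p of 0.000123, 0.0198, 7.47e-05 and 7.83e-05. The Rpl11 call ended without replicate 1 (adjusted p = 0.0802) or 3 (adjusted p = 0.106). Selenok, involved in protein palmitoylation, was higher on polysomes with the Rps19 shRNA (0.71 ± 0.38, adjusted p = 0.00253), with the control construct (0.50 ± 0.03, adjusted p = 0.0144) and in untransduced cells (0.70 ± 0.20, adjusted p = 0.00217), and stood at 0.28 ± 0.06 with the Rpl11 shRNA (adjusted p = 0.143; 0.87 and adjusted p = 0.00144 with arrays centred on their median). The Selenok call with the control construct ended without any 1 of its gradients (adjusted p of 0.0577, 0.0636 and 0.0611 without replicates 1, 2 and 3). Another probe set of Selenok read 0.08, −0.12, −0.26 and −0.16 in the 4 groups, none past the threshold.

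Selenof, which binds the glycoprotein folding sensor of the endoplasmic reticulum, was higher on polysomes in 3 groups and lower in the fourth. It was 1.39-fold higher with the Rps19 shRNA (adjusted p = 0.00535), 1.64-fold higher with the control construct (adjusted p = 0.000562) and 1.33-fold higher in untransduced cells (adjusted p = 0.00836; 0.0675 without replicate 2). With the Rpl11 shRNA it was 1.33-fold lower on polysomes (adjusted p = 0.0138; 0.0649 without replicate 1 and 0.0765 without replicate 3). Centring arrays on their median turned this last value to 0.18, not past the threshold.

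The Rpl11 shRNA lowered the recruitment of 3 of the 9 genes, Selenof, Selenot and Gpx4, against the control construct and raised that of none, where 3.56% of all tested genes were lower and 2.11% higher. Of the 9 differences 7 lay below 0, with a median of −0.22, against 0.02 over all genes. Selenof had recruitment of −0.47, −0.27 and −0.48 with the Rpl11 shRNA, against 0.65, 0.84 and 0.64 with the control construct. The groups lay far apart, and the difference was −1.12 (SE 0.14, 2.17-fold, adjusted p = 0.0087). Only 1.5% of tested genes had a difference at or below it. The call held without any 1 gradient (−1.18 to −1.05, adjusted p of 0.015 to 0.0403) and ended when only both groups were fitted (adjusted p = 0.0996) or when its second, dim probe set was averaged in (−0.95, adjusted p = 0.0545).

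Both pools of Selenof differed. Its subpolysomal signals were 16325, 12565 and 16508 with the Rpl11 shRNA, against 10436, 8456 and 7724 with the control construct, a difference of 0.77 in mean log2 signal. Its polysomal signals were 11754, 10428 and 11865, against 16384, 15122 and 12044, a difference of −0.35. Neither pool overlapped between the groups, and single pools were not tested.

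Selenot had recruitment of 0.48, 0.30 and 0.55 with the Rpl11 shRNA, against 1.47, 1.41 and 0.93 with the control construct. The groups did not overlap, and the difference was −0.82 (SE 0.17, 1.77-fold, adjusted p = 0.023). It lay in the subpolysomal pool (6692, 10581 and 10525, against 4769, 5280 and 5938 signal units, a difference of 0.77), while the polysomal pool differed by −0.05 with overlapping groups. The call ended without control replicate 1 (−0.73, adjusted p = 0.0998), control replicate 2 (−0.75, adjusted p = 0.0805), Rpl11 replicate 2 (−0.75, adjusted p = 0.0519) or Rpl11 replicate 3 (−0.88, adjusted p = 0.0624). The second probe set of Selenot gave −0.66 (adjusted p = 0.1), and the mean of its 4 probe sets, 2 of them below the filter, gave 0.16. The call also ended with arrays centred on their median (−0.87, adjusted p = 0.111) and with quantile normalization over all arrays (−0.53, adjusted p = 0.133).

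Gpx4 differed by −0.65 in recruitment with the Rpl11 shRNA (SE 0.17, 1.57-fold, adjusted p = 0.0491), with no overlap between the groups. Here the polysomal pool was the one that differed, with 11964, 15045 and 9542 signal units with the Rpl11 shRNA, against 21658, 21484 and 20655 with the control construct (−0.83, no overlap). The subpolysomal signals overlapped (18173, 15284 and 10714, against 15959, 16834 and 16026). The call ended without control replicate 1 (adjusted p = 0.154), 2 (0.105) or 3 (0.11) and without Rpl11 replicate 1 (−0.48, adjusted p = 0.0922) or 3 (adjusted p = 0.107). A second probe set of Gpx4 gave −0.84 (adjusted p = 0.0919), and centring arrays on their median gave −0.70 (adjusted p = 0.0771).

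Among the genes not called with the Rpl11 shRNA, Msrb1 stood at −0.69 (SE 0.24, adjusted p = 0.128) and Selenok at −0.22 (SE 0.19, adjusted p = 0.549), both without overlap between the groups. Txnrd1 stood at 0.45 (SE 0.20, adjusted p = 0.224) and Txnrd2 at 0.16 (SE 0.21, adjusted p = 0.719). For Gpx1 the difference was −0.03 with a 95% confidence interval of −0.34 to 0.29, and for Selenow −0.16 with an interval of −0.99 to 0.67. The Gpx1 probe set lies close to the top of the scale, and whether its signal is compressed there was not tested.

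**Figure D3:**
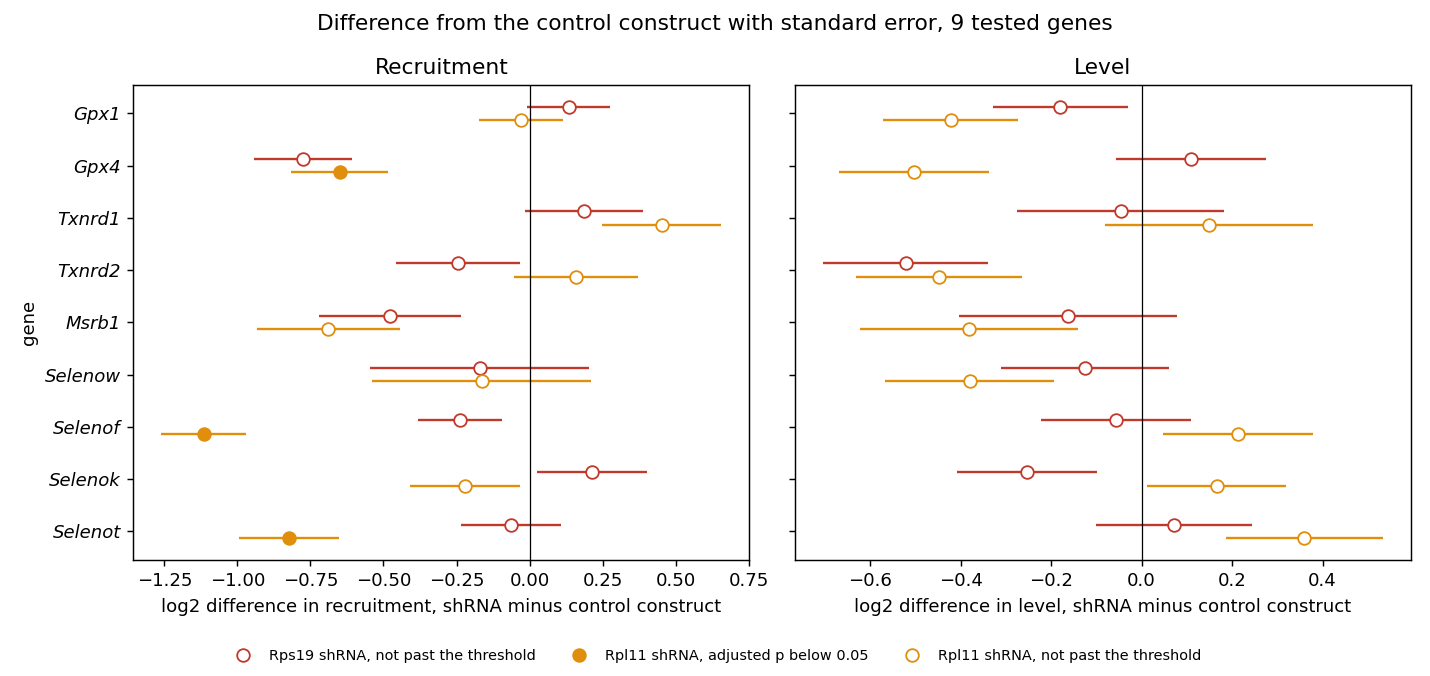
Differences from the control construct in recruitment (left) and level (right), both in log2, with standard errors from limma for the 9 tested genes, Rps19 shRNA above Rpl11 shRNA within each gene. Filled points passed the threshold, and they are Selenof, Selenot and Gpx4 in recruitment with the Rpl11 shRNA.

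With the Rps19 shRNA none of the 9 genes passed against the control construct in recruitment, where 0.29% of all tested genes were higher and 0.58% lower in the limma fit and 1648 genes had an unadjusted p below 0.05. Gpx4 came closest. Its recruitment differed by −0.78 (SE 0.17, 1.71-fold, adjusted p = 0.0602), with no overlap between the groups. Its subpolysomal signals were 23869, 21599 and 23491 with the Rps19 shRNA, against 15959, 16834 and 16026 with the control construct, and its polysomal signals 20332, 16256 and 16291, against 21658, 21484 and 20655. Both pools were without overlap, in opposite directions (0.50 and −0.28). The difference passed with a stricter filter on dim probe sets (75th percentile, adjusted p = 0.0148) and with quantile normalization within each pool (−0.86, adjusted p = 0.0396). The second probe set gave −1.01 (adjusted p = 0.106), and over all its alternatives the adjusted p ran from 0.0148 to 0.207.

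For the other genes the differences with the Rps19 shRNA ran from −0.48 (Msrb1, SE 0.24, adjusted p = 0.39) to 0.21 (Selenok, SE 0.19, adjusted p = 0.66). Selenof stood at −0.24 (SE 0.14, adjusted p = 0.475), again without overlap, since its 3 values of 0.61, 0.40 and 0.40 lay just under the lowest control value of 0.64. Its values in untransduced cells were 0.21, 0.55 and 0.49. Selenot stood at −0.06, with a 95% confidence interval of −0.44 to 0.32.

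**Figure D4:**
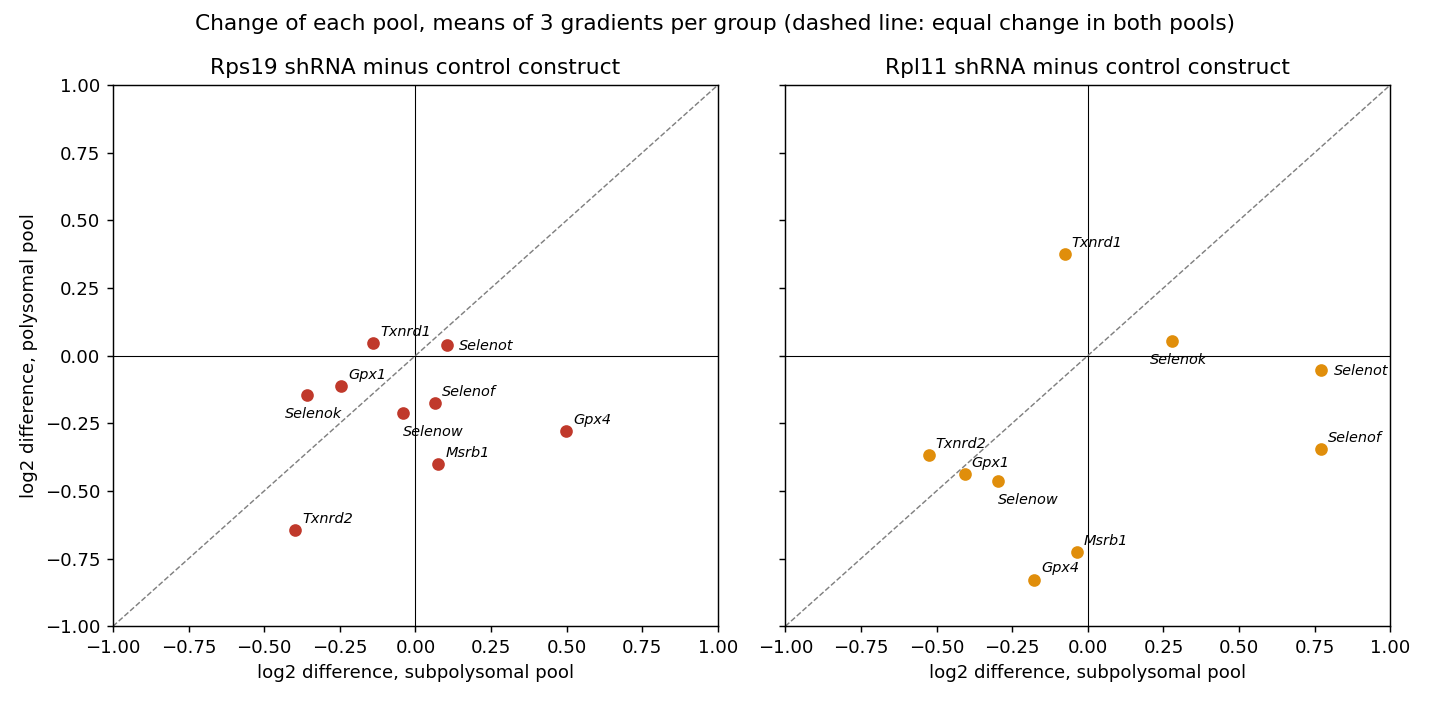
Difference from the control construct in the polysomal pool (vertical) against the subpolysomal pool (horizontal), log2, means of 3 gradients per group, for the Rps19 shRNA (left) and the Rpl11 shRNA (right). With the Rpl11 shRNA Selenof and Selenot lie at 0.77 on the horizontal axis, and Gpx4 at −0.83 on the vertical axis.

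Set against each other, the shRNAs differed in the recruitment of 1 gene, Selenof, which was higher with the Rps19 shRNA, where 0.435% of all tested genes were higher and 0.118% lower. Its recruitment was 0.61, 0.40 and 0.40 with the Rps19 shRNA, against −0.47, −0.27 and −0.48 with the Rpl11 shRNA, a difference of 0.88 (SE 0.14, 1.84-fold, adjusted p = 0.0373). The call ended without Rps19 replicate 1 (adjusted p = 0.12), 2 (0.121) or 3 (0.153) and without Rpl11 replicate 2 (0.0742) or 3 (0.141), at differences of 0.81 to 0.95. It also ended with arrays centred on their median (0.94, adjusted p = 0.0932) and with quantile normalization over all arrays (0.62, adjusted p = 0.0889). Selenot differed by 0.76 (SE 0.17, adjusted p = 0.0817) without overlap. Gpx4 differed by −0.13, with a 95% confidence interval of −0.49 to 0.24. Both comparisons against the control construct use the same 3 control gradients.

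The control construct and untransduced cells differed in the recruitment of no selenoprotein and of 0% of all tested genes in limma, with 497 genes at an unadjusted p below 0.05. The differences of the 9 genes ran from −0.29 (Txnrd1) to 0.40 (Gpx1, SE 0.14, adjusted p = 0.994). Gpx4 stood at 0.26, Selenof at 0.29 and Selenok at −0.20. Gpx1, Gpx4, Selenof and Selenok did not overlap between these groups, although no gene was called. Lack of overlap alone thus does not set the shRNA groups apart. How many of all genes lacked overlap is not given here.

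In level, none of the 9 genes passed with the Rps19 shRNA against the control construct, where 0.807% of all genes did and 1682 had an unadjusted p below 0.05. Since the arrays read bulk RNA, fewer cells of a type and less RNA per cell cannot be told apart. Txnrd2 had the largest difference, −0.52 (SE 0.18, adjusted p = 0.207), and both of its pools lay below the control values without overlap. With the replicate number as a block, 17 of all genes passed in this comparison, against 89, and again none of the 9. With the Rpl11 shRNA none of the 9 passed either, although 20.2% of all genes did and 4059 had an unadjusted p below 0.05. The differences ran from −0.50 (Gpx4, SE 0.17, adjusted p = 0.0525) to 0.36 (Selenot, SE 0.17, adjusted p = 0.155). Gpx1 stood at −0.42 (SE 0.15, adjusted p = 0.0679), with both pools below the control values without overlap. Without Rpl11 replicate 1, Gpx4 (−0.59, adjusted p = 0.0264), Msrb1 (−0.69, adjusted p = 0.0142) and Selenot (0.57, adjusted p = 0.0069) passed. With arrays centred on their median other members passed, all higher with the Rpl11 shRNA, namely Selenof (0.61, adjusted p = 0.0157), Selenok (0.57, adjusted p = 0.0243) and Selenot (0.76, adjusted p = 0.0121). With that centring 3667 of the 11035 tested genes passed, 89.6% of them higher, so these calls follow a shift of all genes.

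Between the shRNAs, 1 of the 9 genes, Gpx4, passed in level, where 20.5% of all tested genes did, and which genes passed depended on the scaling. Its level was 14.29 ± 0.12 with the Rps19 shRNA and 13.68 ± 0.33 with the Rpl11 shRNA (SD, n = 3), a difference of 0.61 (SE 0.17, 1.53-fold, adjusted p = 0.0249), without overlap. The call ended without Rps19 replicate 1 (adjusted p = 0.082), 2 (0.0527) or 3 (0.0623) or Rpl11 replicate 3 (0.42, adjusted p = 0.0654). With arrays centred on their median the Gpx4 difference was 0.27 (adjusted p = 0.271), and 3 other genes passed as lower with the Rps19 shRNA, namely Selenof (−0.61, adjusted p = 0.0174), Selenok (−0.76, adjusted p = 0.00719) and Selenot (−0.63, adjusted p = 0.0309). With that centring 3228 of the 11035 tested genes passed, 2748 of them lower. Without Rpl11 replicate 1, Msrb1 (0.52, adjusted p = 0.0439) and Selenot (−0.50, adjusted p = 0.0128) passed, and without Rpl11 replicate 3, Selenok did (−0.54, adjusted p = 0.0437). Between the control construct and untransduced cells 0% of tested genes differed in level in limma, with 260 at an unadjusted p below 0.05, and the selenoproteins ran from −0.19 (Selenow) to 0.29 (Txnrd2).

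Selenop was fitted only without the filter, among 18192 genes. It passed in no comparison, with adjusted p between 0.0803 and 1.

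Where a gene had several probe sets, they read the pools alike for Gpx4, Selenow and the 2 bright sets of Selenot, and differently for Txnrd1, Txnrd2 and Selenok. The second probe set of Selenof, below the filter, also read differently, at −0.78 with the Rps19 shRNA and −0.49 in untransduced cells. In untransduced cells the 4 probe sets of Txnrd2 gave 0.07, 0.43, 0.54 and −0.34, from the brightest to the dimmest. Levels with the Rpl11 shRNA also depended on the probe set. The kept probe set of Selenow differed by −0.38 (adjusted p = 0.16) and the second by −2.16 (adjusted p = 0.00411), and for Txnrd2 the second differed by −0.80 (adjusted p = 0.0172). For Txnrd1 the kept set stood at 0.15 and the second at −1.78 (adjusted p = 0.0685). Where each probe set lies on its transcript was not analysed here.

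**Figure D5:**
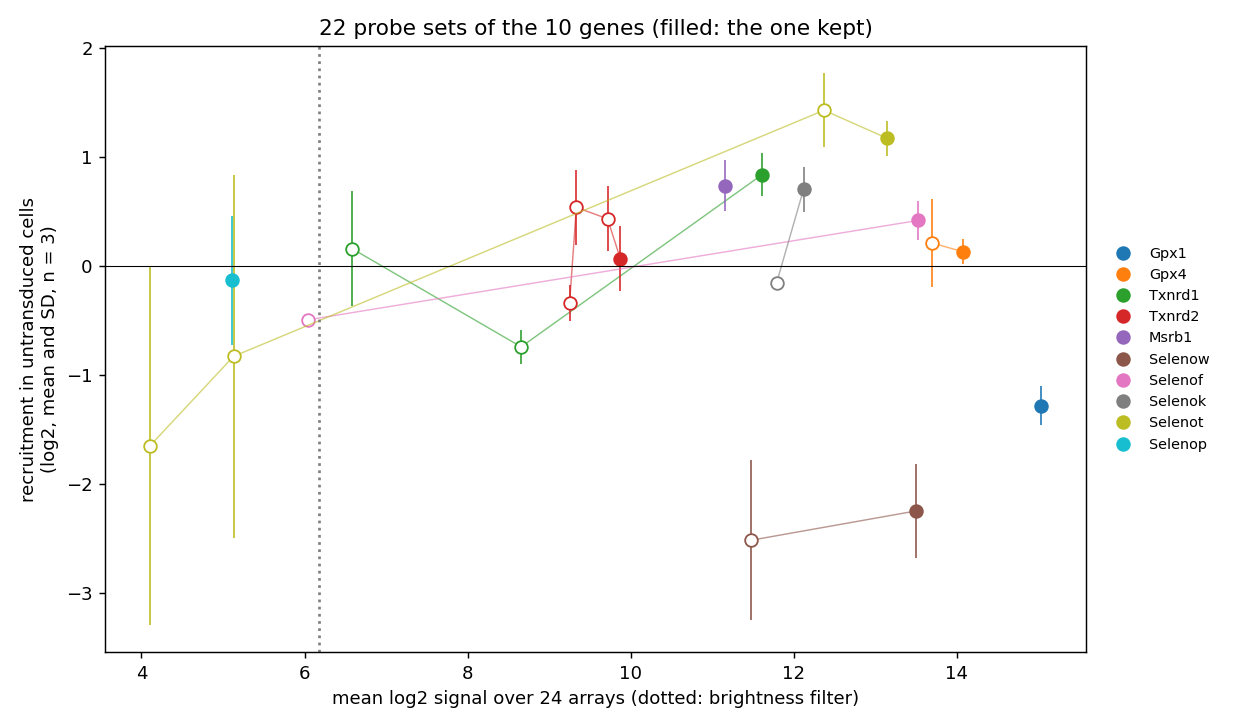
Recruitment in untransduced cells (log2, mean and SD of 3 gradients) of all 22 probe sets against their mean log2 signal over 24 arrays, with lines joining probe sets of 1 gene and the filter as a dotted line at 6.17. Selenow lies near −2.25 and −2.51 with both of its probe sets, while the 3 sets of Txnrd1 lie on both sides of 0.

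Other selenoproteins gave 9 tested genes. Calls for these and for the lists that follow come from the main fit alone, without the alternatives applied to the members. Selenoh, a nucleolar selenoprotein, fell by 1.17 in recruitment with the Rpl11 shRNA (SE 0.15, 2.25-fold, adjusted p = 0.0087), about as much as Selenof. It was higher with the Rps19 than with the Rpl11 shRNA (1.21, SE 0.15, adjusted p = 0.022). Selenos, a membrane protein of the endoplasmic reticulum, was lower with the Rpl11 shRNA (−0.54, SE 0.13, adjusted p = 0.0442), and Selenoi, an enzyme of phospholipid synthesis, was higher (0.72, SE 0.18, adjusted p = 0.0444). Thus 1 of the 9 was higher and 2 were lower with the Rpl11 shRNA (2.11% and 3.56% of all tested genes), and with the Rps19 shRNA 0 of 9 passed (0.29% and 0.58%). Between pools in untransduced cells 2 of the 9 were higher and 1 lower (19.5% and 21.4% of all tested genes). The lower one was Gpx2, another glutathione peroxidase (−2.22, SE 0.46, adjusted p = 0.00342). With the control construct 2 of the 9 were higher on polysomes and 0 lower (17.8% and 18.9%). In level with the Rpl11 shRNA 1 of the 9 was higher and 1 lower, where 20.2% of all tested genes passed. The lower one was again Gpx2 (−1.18, SE 0.26, adjusted p = 0.011).

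Of the genes for selenium supply and selenocysteine insertion 13 were tested. With the Rpl11 shRNA 2 were higher in recruitment than with the control construct and 0 lower (2.11% and 3.56% of all tested genes), namely Sars, the seryl-tRNA synthetase that charges the selenocysteine tRNA with serine (0.98, SE 0.18, adjusted p = 0.0164), and Eefsec (0.67, SE 0.16, adjusted p = 0.0382). The median of the 13 was 0.15, against 0.02 over all genes. With the Rps19 shRNA 0 of 13 passed (0.29% of all tested genes higher and 0.58% lower), and Sars stood at 0.52 (adjusted p = 0.209). In level with the Rpl11 shRNA 3 of 13 passed, close to the 20.2% of all tested genes. Pstk, the kinase that phosphorylates the seryl-tRNA, was higher (0.68, SE 0.12, adjusted p = 0.00523), and Sephs1 (−0.67, SE 0.13, adjusted p = 0.0072) and Sars (−0.76, SE 0.23, adjusted p = 0.039) were lower.

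Partners of these enzymes include thioredoxins, glutaredoxins and glutathione reductase. Of 16 tested genes of the glutathione and thioredoxin systems 0 passed in recruitment with either shRNA against the control construct. Of all tested genes 2.11% were higher and 3.56% lower with the Rpl11 shRNA, and 0.29% and 0.58% with the Rps19 shRNA. Txn1, the substrate of Txnrd1, stood at −0.51 (SE 0.16, adjusted p = 0.0828) with the Rpl11 shRNA. In level with the Rpl11 shRNA 3 of these 16 passed, close to the 20.2% of all tested genes, all lower, namely Glrx3 (−0.64), Gsr, the glutathione reductase (−1.03), and Txn2 (−0.91), with adjusted p of 0.0153, 0.0307 and 0.042. Of 11 other genes of peroxide and superoxide defence, 1 was higher and 0 lower in recruitment with the Rpl11 shRNA (2.11% and 3.56% of all tested genes). It was Nqo1 (0.79, SE 0.20, adjusted p = 0.0442), and 0 passed with the Rps19 shRNA (0.29% and 0.58%). In level with the Rpl11 shRNA, where 20.2% of all tested genes passed, 2 of the 11 were higher, Sod1 (0.69) and Nqo1 (0.43), and 3 were lower, among them Hmox1 (−1.63, SE 0.32, adjusted p = 0.00738). Between pools in untransduced cells 1 of the 11 was higher and 2 were lower (19.5% and 21.4% of all tested genes). Their median was 0.22, against −0.09 over all genes. Among the lower was Prdx2, an abundant peroxiredoxin of red cells (−0.67, SE 0.10, adjusted p = 0.000455). Of 5 tested genes of nonsense-mediated decay 0 passed in recruitment with the Rpl11 shRNA (2.11% of all tested genes higher and 3.56% lower). With the Rps19 shRNA 0 passed as well (0.29% and 0.58%). Smg6 stood at −1.05 (SE 0.28, adjusted p = 0.056) with the Rpl11 shRNA. In level with the Rpl11 shRNA 1 of the 5 passed, close to the 20.2% of all tested genes. This was Upf1, which was lower (−0.45, SE 0.14, adjusted p = 0.0478).

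The genes whose recruitment over the 12 gradients was nearest to that of Gpx1 were Mt2, Rpl38 and Cd24a, with root-mean-square differences of 0.08, 0.09 and 0.11 in log2. For Gpx4 they were Gtf3a (0.12), Ninj1 (0.14) and Banf1 (0.15). For Txnrd1 they were Ndufs3 (0.20), Pitpnc1 (0.21) and Exosc3 (0.22). Recruitment of these genes ran from −1.59 to −0.70 for Rpl38 and from −0.64 to 0.45 for Gtf3a over the 12 gradients, and all of these values come from the same arrays.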

How the data were processed

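The authors deposited one intensity per probe set and array (45101 by 24). MAS5 is the tool named, without a version, per the submitters' processing notes. Another deposited table holds the polysomal fraction of the signal per the file headers, and recomputing it moved no value by more than 7.11e-10. Trimmed means of the arrays (2% at each end) lie between 499.77 and 500, and no array was left out.

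The scale used was log2(signal + 7.8516), where 7.8516 is 0.1 of the median signal (78.516). Probe sets with 1 symbol and a mean log2 signal at or above the median were kept, the brightest per gene. All 12 gradients entered each limma fit (3.58.1, R 4.3.3) by group alone, where moderated statistics share 1 estimate of the spread and p is adjusted by Benjamini-Hochberg. The number of arrays limits the precision. The fit was tested on simulated data with 200 of 11035 genes changed with the Rps19 shRNA against the control construct. Of log2 changes of 0.5, 1 and 2, it called 0%, 35% and 83.5% in recruitment and 0%, 56.5% and 92.5% in level. Differences of the size seen in most members can thus go uncalled.

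The members and gene lists were chosen with earlier results of these data known. Named are all 10 members, both targets, from each list and comparison up to 4 called genes of lowest p (2 genes where none was called), and the 3 genes nearest to Gpx1, Gpx4 and Txnrd1. Rpl30 and Prdx1 are among the listed genes not analysed here, since a probe set with 1 symbol was required. The alternatives tried were other pseudocounts, filters, scalings, probe sets and fits, and leaving out each gradient.

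Residuals of same-numbered gradients correlate above 0.1 in 0 of 18 pairs in recruitment and 7 of 18 in level. In level, all 3 pairs of the Rps19 shRNA and control construct do (0.528, 0.294 and 0.21), so that comparison is also given with the replicate block, and the numbers were not taken to pair gradients in the others.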

Additional observations from a re-analysis of the deposited data

Results flagged for a closer look

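Some values stood out among the selenoproteins and the arrays behind them. The recruitment of Selenof differed between the shRNAs themselves, by 0.88 (Rps19 minus Rpl11 shRNA), in the test of that difference. The level of Gpx4 differed between them by 0.61 in the same kind of test. The control probe sets, which no comparison uses, gave log2 3′ over 5′ Gapdh ratios of 0.99 and 1.23 in Rpl11 polysomal replicates 1 and 2, 2.10 in subpolysomal replicate 2, and 3.31 and 3.90 in the polysomal and subpolysomal pools of replicate 3, above all arrays of the other groups. Groups of 3 gradients were not searched for outlying samples.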

How the results depend on the processing

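Of 1368 values for single selenoproteins under 14 settings other than leaving out a gradient, 1259 kept their direction and side of the threshold, 59 lost and 33 gained a call, and 17 turned. A further 55 changed sign without being called in either fit. Leaving out a gradient lost 34 and gained 6 calls of 540 and turned none that was called. Both totals include values not called in the main fit, which cannot lose a call. The share of calls lost is therefore larger than 59 of 1368 or 34 of 540. The cause of these changes was not tested unless stated. The lower recruitment of Selenof with the Rpl11 shRNA against the control construct ended only with the compared groups alone and with the mean of its probe sets.

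The numbers of selenoproteins called were 7 (Rps19 shRNA), 5 (Rpl11 shRNA), 8 (control construct) and 7 (untransduced) between pools. For recruitment they were 0 (Rps19 shRNA against control construct), 3 (Rpl11 shRNA against control construct) and 1 (Rps19 against Rpl11 shRNA), and for level 0, 0 and 1. Leaving out a gradient gave 5 to 6 between pools with the control construct, 3 to 5 with the Rpl11 shRNA, 1 to 2 in recruitment with the Rpl11 shRNA against the control construct, 0 to 1 between the shRNAs, and in level 0 to 3 both with the Rpl11 shRNA against the control construct and between the shRNAs. A pseudocount of 32 gave 1 in level with the Rpl11 shRNA (2318 of all genes). Without the filter, recruitment gave 1 with the Rpl11 shRNA (95 of all genes, against 626) and 0 between the shRNAs, and level 0 between them. A filter at the 75th percentile gave 1 in recruitment with the Rps19 shRNA (398 of all genes, against 96) and 2 between the shRNAs (361, against 61), and 2 in level both with the Rpl11 shRNA (1954) and between the shRNAs (2064). Centring arrays on their median gave 1 in recruitment with the Rpl11 shRNA (166 of all genes), 0 between the shRNAs, and 3 in level in both of those comparisons (3667 and 3228 of all genes). The 3 were Selenof, Selenok and Selenot in each, with the Gpx4 call lost between the shRNAs. With the Rpl11 shRNA 89.6% of genes called in level were higher (43.2% otherwise), and the median of all genes was 0.32 (−0.08 otherwise). The same centring turned the pool differences of Gpx4 with the Rps19 shRNA (0.26), Selenof with the Rpl11 shRNA (0.18) and Txnrd2 with the control construct (0.51). Quantile normalization over all arrays gave 3 between pools with the Rpl11 shRNA (2261 of all genes) and 0 in recruitment between the shRNAs. It turned Gpx1 between pools with the Rpl11 shRNA (0.011), the control construct (0.22) and in untransduced cells (0.071). Within each pool it gave 1 in recruitment with the Rps19 shRNA (131 of all genes), 1 with the Rpl11 shRNA (620) and 0 between the shRNAs. With the compared groups alone, a fit with fewer gradients, recruitment gave 0 with the Rpl11 shRNA (0 of all genes) and 0 between the shRNAs, and level 0 between them. With the replicate number as a block, recruitment gave 1 with the Rpl11 shRNA (335 of all genes) and 0 between the shRNAs, and level 1 with the Rpl11 shRNA (2341 of all genes) and 0 with the Rps19 shRNA (17 of all genes, against 89). With no replicate block for the pools of a gradient, pools gave 4 (Rps19 shRNA, 2231 of all genes), 3 (Rpl11 shRNA, 1533) and 5 (control construct, 2245).

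Averaging all probe sets of a gene, dim ones included, gave 4 (Rps19 shRNA, 3493 of all genes), 2 (Rpl11 shRNA, 2657), 5 (control construct, 3531) and 3 (untransduced, 4175) between pools. In recruitment averaging gave 0 with the Rpl11 shRNA (269 of all genes) and 0 between the shRNAs, and in level 2 in both of those comparisons (2094 and 2138). It turned Txnrd1 (−0.095), Selenof (−0.16) and Selenot (−0.047) between pools with the Rps19 shRNA, Selenot with the control construct (−0.023), Selenof in untransduced cells (−0.040), and the recruitment difference of Selenot with the Rpl11 shRNA (0.16). An intensity trend with a robust prior gave 2 in level with the Rpl11 shRNA (2388 of all genes) and 2 between the shRNAs (2409). The second-brightest probe set, an alternative chosen after seeing the data, gave 4 (Rps19 shRNA, 4035 of all genes) and 5 (control construct, 4046) between pools, 1 in recruitment (622) and 2 in level (2233) with the Rpl11 shRNA. It turned Txnrd1 with the Rps19 shRNA (−0.83), the control construct (−0.72) and in untransduced cells (−0.74), and Selenok with the control construct (−0.26) and in untransduced cells (−0.16). Only Gpx4, Txnrd1, Txnrd2, Selenow, Selenok and Selenot changed probe set in this setting. Gpx1, Msrb1 and Selenof stayed with the kept one. The 1 call in recruitment, Selenof, thus rests on its kept probe set. Signal over background limits Selenop.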
